A study of Mus musculus with 4 samples.

Results

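The 10 genes described here are targets of Wnt signalling other than the usual crypt base markers: the feedback genes Axin2, Rnf43, Znrf3 and Nkd1, the transcription factor genes Sp5, Sox9, Tcf7 and Myc, the cyclin gene Ccnd1 and the surface receptor gene Cd44. They were chosen by gene symbol, and all 10 were among the 31040 genes of the deposited count files. RNA was sequenced in single cells of mouse intestinal organoids, which are cultures of intestinal epithelium grown from crypts, in 4 droplet libraries from 2 mice aged 10 weeks. Both mice were homozygous for floxed Cbl and floxed Cblb (Cbl flox/flox; Cbl-bflox/flox) and carried R26Cre ERT2, a Cre recombinase that tamoxifen switches on, expressed from a locus active in all cell types. The 2 knockout libraries came from organoids kept with 400 nM 4-hydroxytamoxifen for 3 days to delete both genes, and the 2 control libraries from organoids of the same mice, with the same alleles, kept without the drug. The drug and active Cre were thus present in the knockout libraries and absent from the controls, and their effects cannot be told apart from those of the deletion. Cbl and Cblb encode ubiquitin ligases that mark activated receptor tyrosine kinases for degradation. The comparison asks whether Wnt targets stood at another level once both were deleted.

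Wnt ligands bind Frizzled receptors and Lrp5 or Lrp6, which stops the destruction complex from degrading β-catenin, and β-catenin then drives transcription with TCF factors at target genes. Several targets feed back on the pathway: Axin2 is a scaffold of the destruction complex, Rnf43 and Znrf3 are membrane ubiquitin ligases that remove Frizzled from the cell surface, and Nkd1 binds Dishevelled. In the intestine Wnt activity is high at the crypt base, where stem and Paneth cells sit, and falls towards the villus.

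The libraries held 1702 and 1983 barcodes in knockout 1 and 2, against 1208 and 709 in control 1 and 2. The number is taken here as the mouse, since libraries of the same number carry the same tag in the deposited files. The labels give 2 mice without saying which library came from which, and every call made with the mouse number as a block rests on this reading. Their total depth was 28597336 and 35592468 UMIs (unique molecular identifiers, 1 per RNA molecule counted) in the knockouts, against 27855911 and 22139560 in the controls. The 5362 retained cells were grouped into classes named from marker genes, none of which is one of the 10. Stem-like cells numbered 303 and 126 in the knockouts and 159 and 38 in the controls, cycling-like cells 458 and 625 against 249 and 129, goblet-like cells 96 and 203 against 89 and 41, Paneth-like cells 67 and 101 against 44 and 23, and enterocyte-like cells 208 and 295 against 241 and 267. The remaining cells were enteroendocrine-like (220), regenerative-like (213), tuft-like (31) or unnamed (1136). The stem-like cells formed 1 cluster whose leading genes were Ung, Olfm4, Ifitm3, Mcm3, Mcm2 and Mcm4, so replication genes led it beside stem markers. The cycling-like class joined 3 clusters, and 1 of them, led by Slc7a11, Phlda3 and Psph and with no cycling marker among its top 10 genes, held 17.0% and 65.8% of the class in knockout 1 and 2, against 7.23% and 51.9% in control 1 and 2. The enterocyte-like class also joined 3 clusters, and 1 of them, led by Mgat4c, Reg3g and Aadac and with no enterocyte marker among its top 10 genes, held 44.7% and 18.0% of the class in the knockouts, against 28.6% and 11.6% in the controls. The goblet-like cells also held Paneth markers, whose summed level was 20354 and 56723 CPM (UMIs of a gene per 1000000 UMIs of the library or class) in the knockouts and 35326 and 59219 CPM in the controls. The goblet-like cells were led by Agr2, Atoh1 and Spdef. Another cluster of 319 cells, led by Ccl9, Ccl6 and Spink4, scored higher on the goblet list (1.943 against 1.406). It also held Paneth markers among its top genes and stayed unnamed. At the coarser clustering the goblet-like class held 766 cells, led by Zg16, Fcgbp and Clca1. The summed goblet markers of the goblet-like cells stood at 17432 and 32504 CPM in the knockouts and 18719 and 28829 CPM in the controls. Paneth-like cells held more goblet marker RNA in every library, at 33490 and 39644 CPM in the knockouts and 32796 and 32706 CPM in the controls. Median UMIs per cell were lower in the knockouts in every tested class, at 28172.5 and 25665 in cycling-like cells against 40371 and 56372 in the controls. Markers of immune and mesenchymal cells stayed at or below 0.719 and 0.174 CPM over all cells of any library, while the stem, Paneth, goblet and enterocyte lists were all detected in every library.

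Cbl stood at 12.3 and 10.5 CPM in all cells of knockout 1 and 2, against 16.9 and 19.9 CPM in control 1 and 2. Cblb stood at 3.34 and 0.463 CPM in the knockouts, against 8.53 and 3.93 CPM in the controls. Over all cells both were lower in the knockout of each mouse. With the mouse number as a block, the log2 fold change of Cbl was −0.73 ± 0.14 (SE; edgeR adjusted p = 0.0248) and that of Cblb −2.02 ± 0.38 (edgeR adjusted p = 0.0242), and with the group alone neither passed (edgeR adjusted p = 0.563 and 0.584). The counted reads need not lie in the deleted exons, so part of the transcript may still be counted. Within stem-like, cycling-like and goblet-like cells Cbl was also lower in the knockout of both mice. In enterocyte-like cells Cbl stood at 15.4 and 12.4 CPM in the knockouts, against 14.2 and 16.9 CPM in the controls. In Paneth-like cells it stood at 4.41 and 4.01 CPM, against 3.15 and 7.79 CPM. Cbl was thus not lower in knockout 1 in these classes, while Cblb was lower within both mice in every tested class.

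By GENCODE M21 (GRCm38), Axin2 lies at chr11:108920349-108950783 (+), Rnf43 at chr11:87662722-87735539 (+), Znrf3 at chr11:5276324-5444847 (−), Sox9 at chr11:112782224-112787760 (+) and Tcf7 at chr11:52252371-52283014 (−). Nkd1 lies at chr8:88521354-88594884 (+), Sp5 at chr2:70474923-70477729 (+), Myc at chr15:61985391-61990374 (+), Ccnd1 at chr7:144929931-144939925 (−) and Cd44 at chr2:102811141-102901665 (−). All 10 are protein-coding, and the counts are sums over each gene with no record of exon or UTR. Axin2, Rnf43, Nkd1, Ccnd1, Cd44 and Tcf7 overlap other annotated genes, and since the strand setting of the counting is not stated, reads of such pairs may not have been told apart.

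The 250 bases before the start of transcription were searched on both strands for letters that TCF factors bind, of which the first was CTTTGAT, the second CTTTGAA, the third CTTTGTT and the fourth CTTTGTA. The RefSeq promoter table (GRCm38.p6) matched 6 of the 10 genes with 8 promoters: Axin2, Nkd1, Sp5 and Cd44 with 1 each and Rnf43 and Tcf7 with 2 each. Of these promoters, that of Sp5, a transcription factor gene induced by Wnt signalling, held 2 matches and the others held 0. Of 32851 mouse promoters of this length, 14.8% held at least 1 match and 1.43% at least 2. The promoters of Sp5 and of Cd44 are shown because that of Sp5 alone held matches and Cd44 had the largest difference between knockouts and controls that was called among the 10. The Sp5 promoter is chr2:70474673-70474922 on the plus strand and the Cd44 promoter chr2:102901666-102901915 on the minus strand. Both are written 5′ to 3′ with the matches in capitals.
Sp5: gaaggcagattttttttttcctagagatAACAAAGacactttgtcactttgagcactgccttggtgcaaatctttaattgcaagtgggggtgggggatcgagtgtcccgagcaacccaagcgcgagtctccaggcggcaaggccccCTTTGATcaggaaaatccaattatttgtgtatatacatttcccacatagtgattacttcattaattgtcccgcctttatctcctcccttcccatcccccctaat
Cd44: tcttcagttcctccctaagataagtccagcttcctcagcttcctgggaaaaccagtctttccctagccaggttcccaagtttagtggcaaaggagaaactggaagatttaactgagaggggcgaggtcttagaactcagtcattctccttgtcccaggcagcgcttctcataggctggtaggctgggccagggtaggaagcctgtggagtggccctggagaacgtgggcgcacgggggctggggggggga
The Cd44 window holds none of these letters in either direction, which says nothing of sites outside it.

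Across the 7 classes other than the small tuft-like one, all 10 genes were lowest or next to lowest in enterocyte-like cells, the absorptive cells of the villus, and most were highest in stem-like or cycling-like cells. The levels are CPM of the UMIs summed over a class in 1 library. Levels are compared between classes and not between genes, and without a test, since the classes were made by clustering the same cells. None of the 10 was among the 2000 variable genes the clustering used. Fewer expressing cells and less RNA per cell cannot be told apart in such sums.

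Axin2, the usual reporter of Wnt activity, stood at 143 and 103 CPM in cycling-like cells of knockout 1 and 2, against 143 and 106 CPM in control 1 and 2. In stem-like cells it stood at 121 and 80.8 CPM in the knockouts, against 119 and 80.7 CPM in the controls. Its next levels, as means over the 4 libraries, were 80.8 CPM in goblet-like, 54.1 in enteroendocrine-like, 26.7 in Paneth-like, 9.79 in enterocyte-like and 7.56 in regenerative-like cells. The order from cycling-like to enteroendocrine-like held in each of the 4 libraries although the ranges of neighbours overlapped, and the ranges of enteroendocrine-like, Paneth-like and enterocyte-like cells did not overlap. Within a library, cycling-like cells held 9.32 to 24.3 times the Axin2 level of enterocyte-like cells.

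Rnf43 was highest in stem-like cells, at 54.7 and 52.0 CPM in the knockouts against 50.5 and 47.2 CPM in the controls. It stood at 46.7 and 47.8 CPM in cycling-like cells of the knockouts, against 47.9 and 48.5 CPM in those of the controls. Within a library its ratio of cycling-like to enterocyte-like cells was 1.44 to 4.14, below that of Axin2. Znrf3, its paralog, stood at 16.2 and 12.1 CPM in cycling-like cells of the knockouts against 14.7 and 11.8 CPM in the controls, and its levels in stem-like, goblet-like and enteroendocrine-like cells lay within overlapping ranges. Sp5 stood at 53.6 and 48.0 CPM in cycling-like cells of the knockouts, against 51.5 and 49.2 CPM in the controls, and at 57.7 and 44.6 CPM in stem-like cells, against 50.9 and 44.5 CPM. It was also high in enteroendocrine-like cells, the hormone cells, with 34.8 to 39.5 CPM over the 4 libraries, and low in Paneth-like cells, with 10.4 to 12.6 CPM.

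Nkd1 had another pattern. It stood at 11.0 and 4.01 CPM in Paneth-like cells of the knockouts, against 10.5 and 10.4 CPM in the controls, and at 10.4 and 11.3 CPM in enteroendocrine-like cells, against 2.18 and 27.4 CPM. In cycling-like cells it stood at 0.540 and 0.362 CPM in the knockouts, against 0.0954 and 0.381 CPM in the controls. No Nkd1 UMI was counted in regenerative-like cells of any library, where a count of 0 allows up to 20.8 and 1.03 CPM in the knockouts and 8.55 and 1.08 CPM in the controls. In tuft-like cells 1 and 1 Nkd1 UMIs were counted in the knockouts, against 7 and 0 in the controls, and the 7 UMIs of control 1 stand for 141 CPM (exact Poisson interval 56.8 to 291, counting error only), the highest Nkd1 level of any class and library. At the settings used for the other genes, Nkd1 passed the filter on low counts in all cells together and in no class. With no filter, and in Paneth-like cells also with likely doublets kept, with coarser clusters or without 1 library, it could be tested within a class and was not called.

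The transcription factor Sox9, which acts in progenitors and Paneth cells, was about level from goblet-like to enteroendocrine-like cells, with class means over the 4 libraries of 131, 129, 126 and 121 CPM, no order among these neighbours beyond their spread, and 16.5 CPM in enterocyte-like cells. Tcf7, the gene of the factor TCF1, averaged 12.5 CPM in stem-like, 12.0 in cycling-like and 1.25 in enterocyte-like cells. Myc, a driver of cell growth, averaged 71.3 CPM in cycling-like and 70.0 CPM in stem-like cells, against 10.1 CPM in enterocyte-like cells. Ccnd1, the G1 phase cyclin D1, averaged 219 CPM in stem-like and 183 CPM in cycling-like cells and was higher in the stem-like ones in each library. Cd44, the hyaluronan receptor that marks crypt cells, averaged 84.2 CPM in cycling-like, 67.1 in stem-like, 59.9 in regenerative-like, 53.3 in goblet-like and 6.16 in enterocyte-like cells. The regenerative-like value was split by mouse, with 34.6 and 92.1 CPM in knockout 1 and 2 against 37.0 and 75.9 CPM in control 1 and 2. The class held 10 and 131 cells in the knockouts and 12 and 60 in the controls, so the mouse 1 values rest on few cells. It was led by Zg16, Clu, Anxa1 and Clca1, with the goblet markers Zg16 and Clca1 among them. The tuft-like sums, from 4 to 10 cells a library, held Sox9 at 266 and 431 CPM in the knockouts against 323 and 387 CPM in the controls and no UMI of Sp5, Myc or Tcf7, which at these totals allows up to 53.3 and 129 CPM in the knockouts and 60.6 and 116 CPM in the controls.

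**Figure D1:**
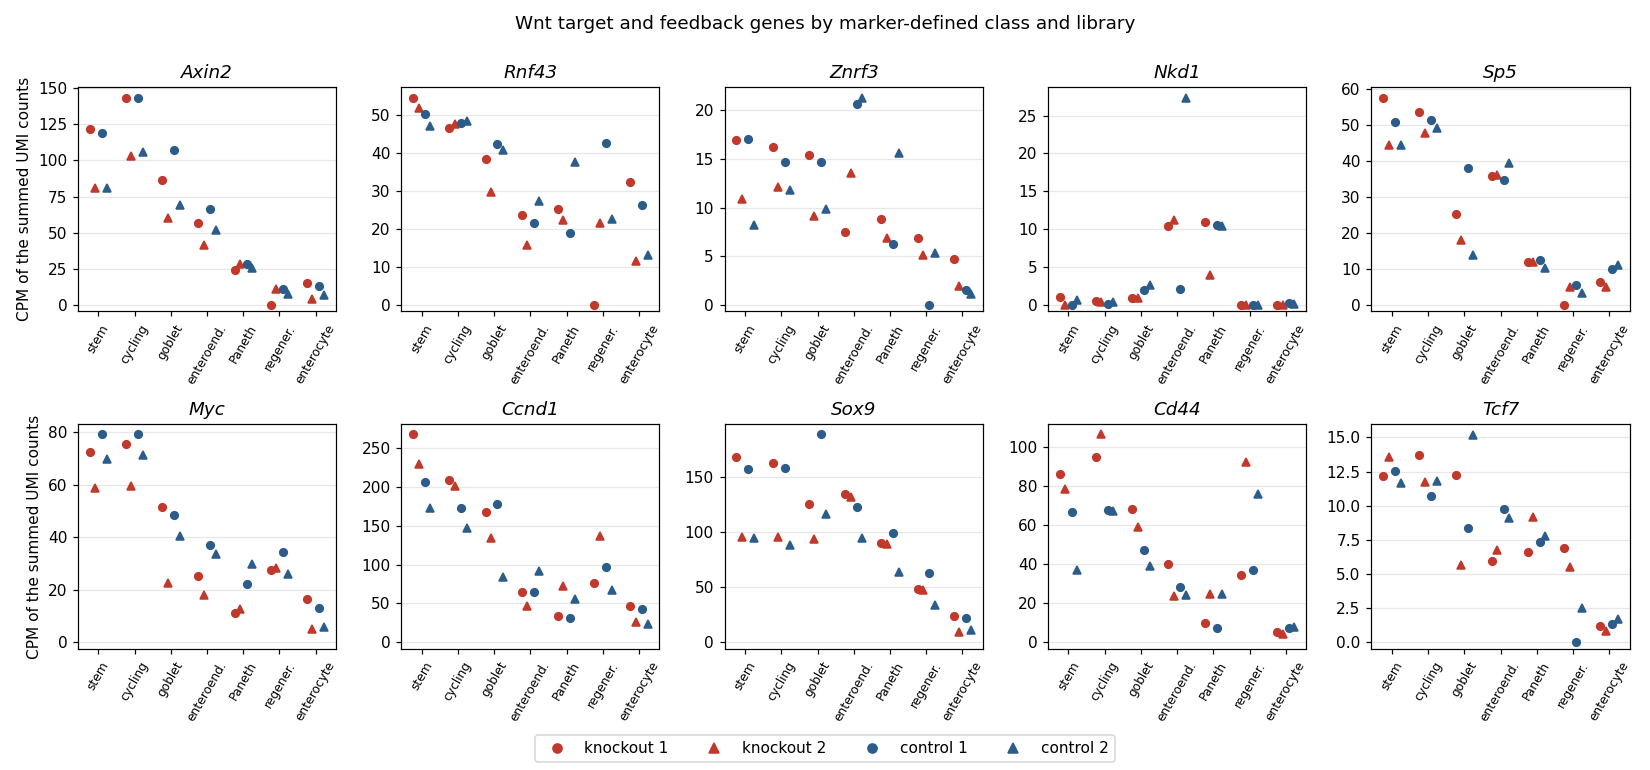
CPM of each of the 10 genes (y axis, linear, its own scale per panel) in 7 classes (x axis), with 1 point per library, knockouts in red left of controls in blue, circles for mouse 1 and triangles for mouse 2. Most panels are high on the left (stem-like and cycling-like) and low in enterocyte-like cells, while Nkd1 is high in enteroendocrine-like and Paneth-like cells.

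Over the 20 sums of the 5 tested classes in 4 libraries, log2(CPM + 1) of 8 of the other genes correlated with that of Axin2 at 0.884 (Znrf3) to 0.953 (Myc) (Pearson). Ccnd1 and Cd44 correlated at 0.947. Nkd1 correlated with the other 9 at −0.34 (Ccnd1) to 0.250 (Sox9). Among 7691 genes with a mean of at least 10 CPM, the genes most like Axin2 were Cnn3 (0.985), Cers4 and Trim28, the gene most like Sp5 was Ascl2 (0.966), a crypt base transcription factor, that most like Tcf7 was Slc12a2 (0.955), a crypt transporter, and those most like Nkd1 were the Paneth defensins Defa35 (0.953) and Defa34, which are near-identical copies. Ascl2 and Slc12a2 are among the stem markers used to name the classes, so their likeness is not independent of that naming. Znrf3 was most like Zfhx3 (0.950), Rnf43 like Mrgbp (0.944), Myc like Rpl4 (0.969), Ccnd1 like Dna2 (0.982) and Cd44 like Gmps (0.975). Enteroendocrine-like cells, where Nkd1 averaged 12.8 CPM, are not among these 5 classes. Of the 5, Nkd1 was highest in Paneth-like cells, at a mean of 8.98 CPM, which favours Paneth genes as those most like it. The points share libraries and the step from crypt-like to enterocyte-like cells, so these values describe class patterns and carry no p.

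In all cells together, Cd44 and Ccnd1 were higher in the knockouts and the other 8 genes were not called. Cd44 stood at 77.6 and 79.4 CPM in knockout 1 and 2, against 48.3 and 45.4 CPM in control 1 and 2. Ccnd1 stood at 196 and 159 CPM in the knockouts, against 144 and 96.4 CPM in the controls. The groups did not overlap for these 2 genes and overlapped for the other 8, while 41.2% of 13246 genes tested did not overlap.

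The log2 fold change of Cd44 was 0.70 ± 0.08 (SE) with the mouse number as a block (edgeR adjusted p = 0.00491) and 0.71 ± 0.11 with the group alone (edgeR adjusted p = 0.563). That of Ccnd1 was 0.54 ± 0.10 with the block (edgeR adjusted p = 0.0219) and 0.53 ± 0.21 with the group alone (edgeR adjusted p = 0.563). With the block 2 of the 10 genes were called, both higher, against 12.7% of all genes, and 4.43% higher. With the group alone none of the 10 was called, against 0% of all genes (0 of 13246, with 1141 at an unadjusted p under 0.05 and 131 called by DESeq2), and Cd44 was called by DESeq2. Leaving out 1 library gave Ccnd1 values of 0.81 without control 1 and 0.30 without control 2.

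The 8 other genes differed by less. Axin2 stood at 117 and 73.0 CPM in the knockouts, against 105 and 58.2 CPM in the controls, with a log2 fold change of 0.20 ± 0.08 with the block (edgeR adjusted p = 0.158). Sp5 stood at 45.1 and 32.5 CPM in the knockouts, against 38.8 and 26.9 CPM in the controls, with 0.20 ± 0.08 (edgeR adjusted p = 0.15). Both were thus higher in the knockout of each mouse, by less than the gap between the mice. Rnf43 (0.11 ± 0.08), Znrf3 (0.17 ± 0.11), Sox9 (0.14 ± 0.09), Tcf7 (0.16 ± 0.13), Myc (−0.01 ± 0.08) and Nkd1 (−0.29 ± 0.36) had edgeR adjusted p of 0.343 to 0.965 with the block. The median over the 10 genes was 0.17, against −0.01 over all genes tested.

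The classes took other shares of the cells in the 2 groups, and this bears on the sums over all cells. Cycling-like cells made up 28.1% and 32.8% of cells in the knockouts, against 21.7% and 18.9% in the controls. Enterocyte-like cells, where the genes are low, made up 12.8% and 15.5% in the knockouts, against 21.0% and 39.1% in the controls. With the class shares held fixed, the log2 fold change was 0.56 for Cd44 and 0.37 for Ccnd1, and neither passed the test (limma with the block, adjusted p = 0.0781 and 0.142). For Axin2, Rnf43, Sp5 and Tcf7 it was then 0.0039, −0.0033, −0.0018 and 0.0017.

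**Figure D2:**
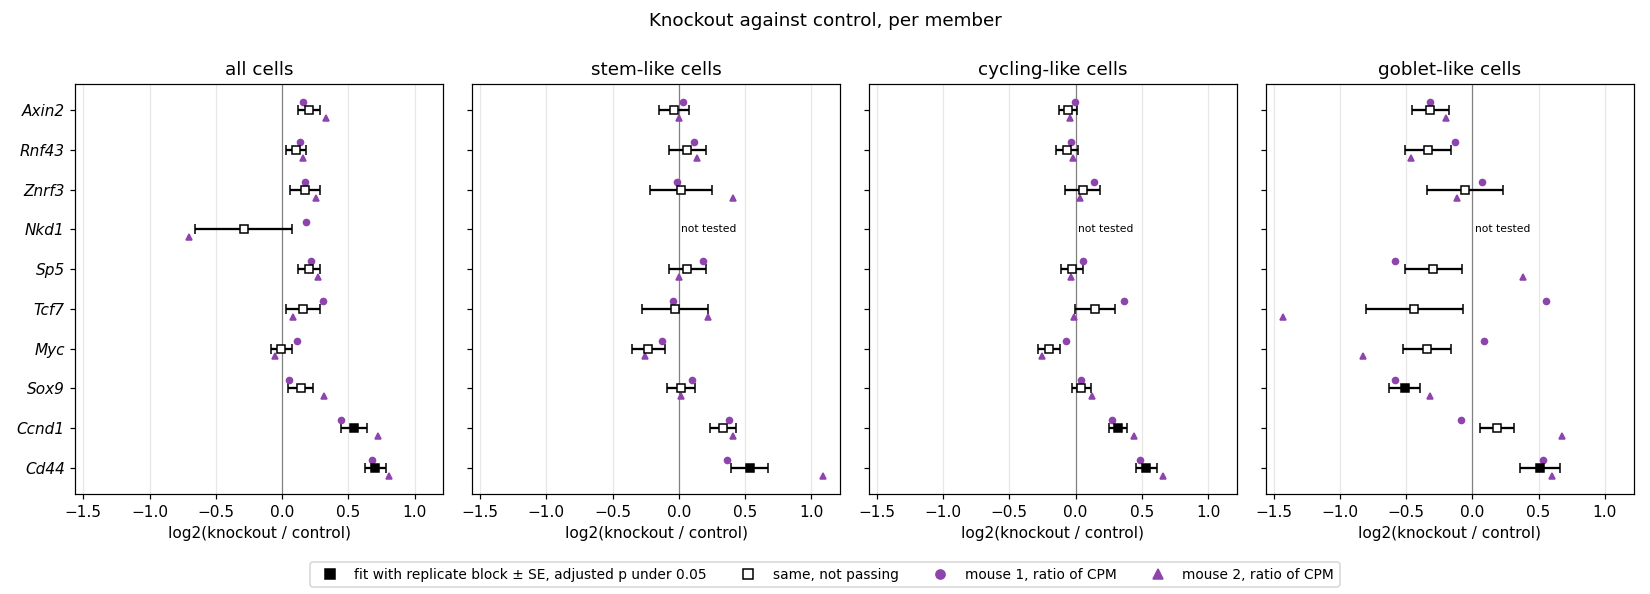
Log2 ratio of knockout to control (x axis) for each gene (y axis) in all cells and 3 classes; squares with bars are the fit with the mouse block ± SE, filled where the edgeR adjusted p was under 0.05, and circles and triangles are the CPM ratios within mouse 1 and mouse 2. Cd44 lies to the right of 0 in every panel for both mice, and the Axin2 fit lies at −0.04 in stem-like and −0.06 in cycling-like cells.

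Within cycling-like cells the same 2 genes were higher in the knockouts. Cd44 stood at 94.9 and 107 CPM in knockout 1 and 2, against 67.7 and 67.5 CPM in control 1 and 2, with a log2 fold change of 0.53 ± 0.08 with the block (edgeR adjusted p = 0.00463) and 0.54 ± 0.12 with the group alone (edgeR adjusted p = 0.516). Ccnd1 stood at 209 and 201 CPM in the knockouts, against 173 and 148 CPM in the controls, with 0.32 ± 0.07 with the block (edgeR adjusted p = 0.0297) and 0.32 ± 0.10 with the group alone (edgeR adjusted p = 0.61). With the block, 2 of 9 genes tested were called, both higher, against 5.05% of 11313 genes, and 2.22% higher. With the group alone the call share was 0% (849 genes at an unadjusted p under 0.05 and 44 called by DESeq2). The groups did not overlap for Rnf43, Ccnd1 and Cd44, against 38.9% of all genes. Without the cluster led by Slc7a11, whose share differed between the libraries, the values with the block were 0.47 for Cd44 (edgeR adjusted p = 0.00505) and 0.29 for Ccnd1 (edgeR adjusted p = 0.032). The summed cycling markers of this class stood at 4374 and 3622 CPM in the knockouts, against 4158 and 3570 CPM in the controls.

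Of the feedback genes, Nkd1 was not tested there and the other 3 were not called, nor was Sp5. The log2 fold change with the block was −0.06 ± 0.07 for Axin2, −0.07 ± 0.08 for Rnf43, 0.05 ± 0.13 for Znrf3 and −0.03 ± 0.08 for Sp5, with edgeR adjusted p of 0.695 to 0.892. A p that misses the threshold does not show that the groups were equal. Myc stood at 75.3 and 59.6 CPM in the knockouts, against 79.2 and 71.2 CPM in the controls, lower within both mice, with −0.20 ± 0.08 (edgeR adjusted p = 0.194). Sox9 (0.04 ± 0.07) and Tcf7 (0.14 ± 0.15) were not called.

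In stem-like cells Cd44 stood at 86.1 and 78.6 CPM in the knockouts, against 66.9 and 36.9 CPM in the controls, with 0.54 ± 0.14 with the block (edgeR adjusted p = 0.0296) and 0.54 ± 0.20 with the group alone (edgeR adjusted p = 0.526). The control 2 value came from 38 cells, and with the group alone the log2 fold change was 0.27 without that library and 1.09 without control 1. The call with the block was lost when likely doublets were kept (0.40, edgeR adjusted p = 0.248) and under coarser clusters (0.43, edgeR adjusted p = 0.0749). Keeping doublets also meant clustering anew, and stem-like cells then numbered 281 and 74 in the knockouts and 144 and 13 in the controls. The part of the doublets themselves was not tested. Ccnd1 stood at 268 and 229 CPM in the knockouts, against 206 and 173 CPM in the controls, with 0.33 ± 0.10 with the block (edgeR adjusted p = 0.052), short of the threshold. With the block 1 of 9 genes tested was called, against 2.63% of 9876 genes, and 0.932% higher. With the group alone none was called, against 0.0101% of genes. The groups did not overlap for Rnf43, Ccnd1 and Cd44, against 38.3% of all genes. Myc stood at 72.5 and 58.5 CPM in the knockouts, against 79.2 and 69.8 CPM in the controls (−0.23 ± 0.12, edgeR adjusted p = 0.443). Axin2 (−0.04 ± 0.11), Rnf43 (0.07 ± 0.14), Znrf3 (0.01 ± 0.23), Sp5 (0.06 ± 0.14), Sox9 (0.02 ± 0.11) and Tcf7 (−0.03 ± 0.25) had edgeR adjusted p of 0.913 to 0.991, and Nkd1 was not tested.

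Since cells of the knockouts held fewer UMIs, the share of cells with a UMI was also taken after each cell was thinned to 5000 UMIs. In cycling-like cells Cd44 was then found in 34.2% (95% Clopper-Pearson interval 29.8 to 38.9) and 40.1% (36.2 to 44.1) of cells in the knockouts, against 29.3% (23.7 to 35.5) and 30.2% (22.5 to 38.9) in the controls. Unthinned, the shares were 84.9% and 89.0% in the knockouts, against 85.1% and 96.1% in the controls. In goblet-like cells the thinned share was 25.0% and 22.0% in the knockouts, against 9.88% (8 of 81 cells) and 12.5% (5 of 40) in the controls. In stem-like cells it was 31.6% and 32.0% against 25.2% and 10.8%, the last from 4 of 37 cells (3.03 to 25.4). Unthinned, the goblet-like shares were 58.3% and 60.6% in the knockouts, against 42.7% and 63.4% in the controls. The unthinned stem-like shares were 73.3% and 69.8% against 74.8% and 73.7%. In enterocyte-like cells, at median depths of 5142.5 and 9076 UMIs against 10136 and 16044, the thinned share was 0.926% and 1.85% in the knockouts and 1.58% and 1.90% in the controls. Enterocyte-like cells serve here as the class with least Cd44, and the part of RNA from other cells in these shares was not tested. Axin2 was found in 48.4% and 36.9% of cycling-like cells in the knockouts, against 48.8% and 37.2% in the controls. Thinning left out 30 of 1461 cycling-like cells and 286 of 1011 enterocyte-like cells. The intervals cover counting error only.

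**Figure D3:**
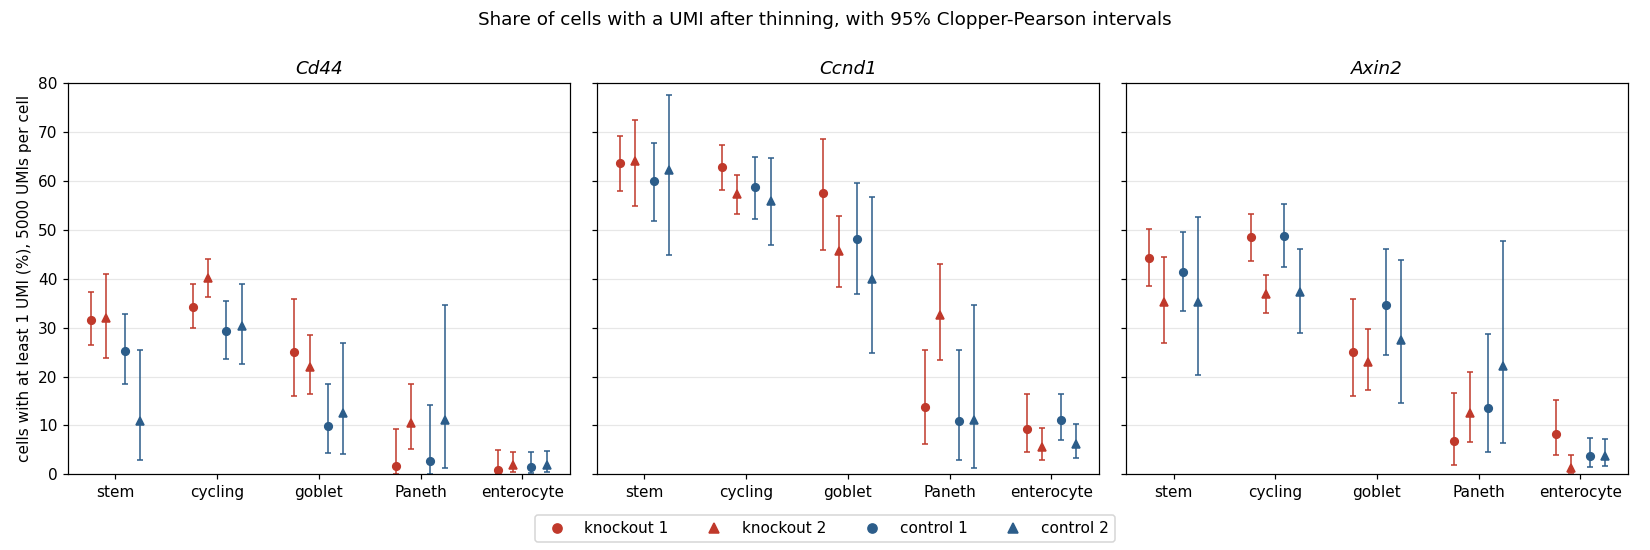
Percent of cells with at least 1 UMI (y axis) of Cd44, Ccnd1 and Axin2 in 5 classes (x axis) after thinning to 5000 UMIs per cell, with 1 point per library, knockouts in red left of controls in blue, and bars for 95% Clopper-Pearson intervals. In cycling-like cells the Cd44 points of the knockouts (34.2% and 40.1%) lie above those of the controls (29.3% and 30.2%), and the Axin2 points pair up by mouse.

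In goblet-like cells Cd44 was higher and Sox9 lower in the knockouts. Cd44 stood at 68.1 and 59.1 CPM in knockout 1 and 2, against 47.1 and 39.0 CPM in control 1 and 2. Its log2 fold change was 0.51 ± 0.15 with the block (edgeR adjusted p = 0.0297) and 0.50 ± 0.17 with the group alone (edgeR adjusted p = 0.406). With likely doublets kept and the cells clustered anew, it was 0.82 with the block. The class then held other cells too, 159 and 285 in the knockouts and 187 and 92 in the controls. Sox9 stood at 126 and 93.3 CPM in the knockouts, against 189 and 116 CPM in the controls. The groups overlapped, and Sox9 was lower in the knockout within each mouse. Its log2 fold change was −0.51 ± 0.12 with the block (edgeR adjusted p = 0.00354) and −0.54 ± 0.21 with the group alone (edgeR adjusted p = 0.45), and with the group alone it was −0.19 without control 1. With the block 2 of 9 genes tested were called, against 7.43% of 9743 genes, 3.8% higher and 3.63% lower. With the group alone none of the 9 was called, against 0% of all genes (982 at an unadjusted p under 0.05 and 10 called by DESeq2).

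The other 7 genes tested in goblet-like cells were not called. Axin2 stood at 86.3 and 60.3 CPM in the knockouts, against 107 and 69.4 CPM in the controls (−0.32 ± 0.14, edgeR adjusted p = 0.163), and Rnf43 at 38.6 and 29.8 CPM, against 42.4 and 41.0 CPM (−0.34 ± 0.17, edgeR adjusted p = 0.254). Myc (−0.34 ± 0.18), Sp5 (−0.29 ± 0.22), Tcf7 (−0.44 ± 0.37), Znrf3 (−0.05 ± 0.29) and Ccnd1 (0.19 ± 0.13) had edgeR adjusted p of 0.273 to 0.951 with the block. The groups did not overlap for Rnf43, Nkd1 and Cd44, against 39.9% of all genes. The summed cycling markers of goblet-like cells stood at 3049 and 2495 CPM in the knockouts, against 2031 and 1632 CPM in the controls, and their part in these values was not tested.

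In enterocyte-like cells none of the 7 genes tested was called, against 2.32% of 9885 genes with the block and 0% with the group alone (190 at an unadjusted p under 0.05 and 6 called by DESeq2). Cd44 stood at 5.32 and 4.23 CPM in the knockouts, against 7.10 and 7.98 CPM in the controls (−0.68 ± 0.39 with the block, edgeR adjusted p = 0.637). These values rest on 9 and 15 UMIs in the knockouts and 27 and 43 UMIs in the controls. The mix of clusters in this class differed between the libraries, and its part in these values was not tested. Sp5 stood at 6.50 and 5.08 CPM in the knockouts, against 9.99 and 11.1 CPM in the controls (−0.89 ± 0.34, edgeR adjusted p = 0.2). Axin2 (−0.12 ± 0.32), Rnf43 (0.10 ± 0.23), Myc (0.13 ± 0.31), Ccnd1 (0.13 ± 0.20) and Sox9 (−0.08 ± 0.25) had edgeR adjusted p of 0.95 to 0.976. The groups did not overlap for Znrf3, Nkd1, Sp5, Cd44 and Tcf7, against 23.3% of all genes, and Znrf3, Nkd1 and Tcf7 did not pass the filter on low counts there.

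The difference of the knockout effect between classes was tested itself. For Cd44 the effect was higher in stem-like than in enterocyte-like cells by 1.46 ± 0.40 on the log2 scale with the block (edgeR adjusted p = 0.0363), and higher in cycling-like than in enterocyte-like cells by 1.28 ± 0.37 (edgeR adjusted p = 0.0397). Cd44 was the 1 gene called of the 9 tested in each, against 0.733% and 1.37% of all genes. Without the mouse term 0.00916% and 0% of all genes were called (400 at an unadjusted p under 0.05 in the second), and the Cd44 differences were 1.34 ± 0.45 and 1.26 ± 0.35 and were not called (edgeR adjusted p = 1 in both), and the first of them was 0.81 without control 2 and 1.91 without control 1. The difference for Sp5 was of the same sign, at 0.95 ± 0.37 and 0.89 ± 0.34 with the block, and was not called (edgeR adjusted p = 0.391 and 0.251). That for Znrf3 was −1.10 ± 0.69 and −1.13 ± 0.60 (edgeR adjusted p = 0.868 and 0.594), those for Axin2, Rnf43, Myc, Ccnd1, Sox9 and Tcf7 ran from −0.32 (Myc) to 0.75 (Tcf7) and were not called, and Nkd1 was not tested. The Cd44 counts of enterocyte-like cells are few and were not shown to come from those cells, so the test compares the counts as they stand and does not show an effect particular to a class.

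In Paneth-like cells, which support the stem cells with Wnt ligands, none of the 7 genes tested was called, against 0.136% of 5900 genes with the block and 0.0169% with the group alone. Myc stood at 11.0 and 12.6 CPM in the knockouts, against 22.1 and 29.9 CPM in the controls, and was the only one of the 10 whose groups did not overlap, against 31.2% of all genes. Its log2 fold change of −1.24 ± 0.35 with the block did not pass (edgeR adjusted p = 0.377). Axin2 (−0.12 ± 0.29), Rnf43 (−0.35 ± 0.37), Sp5 (0.01 ± 0.43), Ccnd1 (0.18 ± 0.21), Sox9 (0.11 ± 0.19) and Cd44 (−0.02 ± 0.37) had edgeR adjusted p of 0.839 to 0.996. Znrf3, Nkd1 and Tcf7 did not pass the filter on low counts there.

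For Axin2, Znrf3 and Sox9 the mice differed more than the groups in stem-like and cycling-like cells. In stem-like cells 8 of the 10 genes, and in cycling-like cells 6, were lower in mouse 2 than in mouse 1 in both groups. The share of all genes lower in mouse 2 was not computed, so these counts are not shown to be particular to the 10. The Axin2 level of mouse 2 in cycling-like cells was 71.9% of that of mouse 1 in the knockouts and 73.9% in the controls. That of Sox9, at 163 and 95.9 CPM in knockout 1 and 2 and 158 and 87.8 CPM in control 1 and 2, was 58.9% in the knockouts and 55.6% in the controls. Rnf43 was nearly level between the mice, at 102% in the knockouts and 101% in the controls. Mouse 2 also held the lower stem marker sum, with 4765 and 2206 CPM in cycling-like cells of knockout 1 and 2 and 4097 and 1797 CPM in those of control 1 and 2. The mix of clusters in cycling-like cells also differed by mouse. The cluster led by Slc7a11 held 65.8% and 51.9% of the class in knockout 2 and control 2. It held 17.0% and 7.23% in knockout 1 and control 1, and its part in these gaps was not tested. With 1 mouse of each number, a difference between mice cannot be told apart from one between cultures or library runs.

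**Figure D4:**
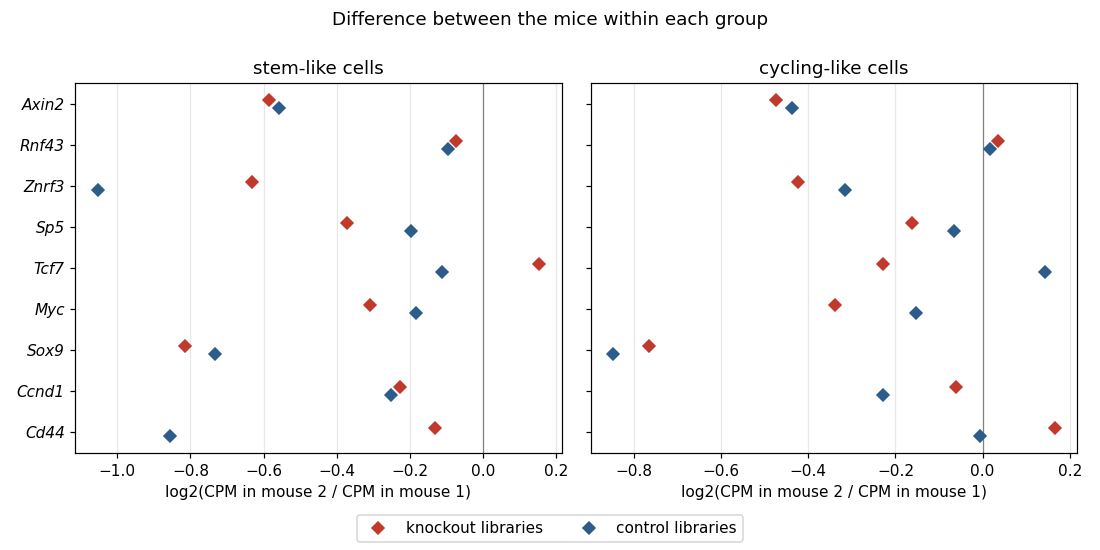
Log2 ratio of the CPM in mouse 2 to that in mouse 1 (x axis) for 9 genes (y axis; Nkd1, with few UMIs, is not drawn) in stem-like and cycling-like cells, knockout libraries in red above control libraries in blue. Axin2, Znrf3, Sox9 and Myc lie left of 0 in both groups and both classes.

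Among the other genes of the pathway, 8 were called over all cells with the block, at list shares to be read against 12.7% of all genes, 4.43% higher and 8.29% lower. None of 6 ligand genes tested, none of 14 genes of the cytoplasmic signal and none of 7 inhibitors was called. Of 15 receptor genes, 0 rose and 2 fell: Fzd5, a Frizzled receptor, stood at 27.4 and 23.7 CPM in the knockouts against 37.1 and 36.0 CPM in the controls (−0.56 ± 0.09, edgeR adjusted p = 0.0166), and Lgr4, a receptor for R-spondins, at 45.4 and 39.2 CPM against 54.7 and 49.1 CPM (−0.34 ± 0.08, edgeR adjusted p = 0.0381). Of 12 nuclear partners, the corepressor gene Tle1 rose (0.34 ± 0.07, edgeR adjusted p = 0.0371) and its paralog Tle4 fell (−0.58 ± 0.10, edgeR adjusted p = 0.0182). Of 11 other targets 2 rose and 0 fell: the stem cell receptor gene Lgr5 stood at 108 and 52.8 CPM in the knockouts against 79.3 and 19.8 CPM in the controls (0.85 ± 0.21, edgeR adjusted p = 0.0455), and Tnfrsf19 at 7.80 and 5.76 CPM against 4.72 and 2.74 CPM (0.84 ± 0.18, edgeR adjusted p = 0.0352). Of 12 relatives and partners of Myc and Ccnd1, 0 rose and 2 fell, the CDK inhibitor gene Cdkn2b (−0.90 ± 0.08, edgeR adjusted p = 0.00233) and the Myc antagonist gene Mxd1 (−0.84 ± 0.11, edgeR adjusted p = 0.00895). The shares of cycling-like and enterocyte-like cells differed between the groups, and with the class shares held fixed none of these 8 genes was called (limma with the block, adjusted p = 0.138 to 0.655), against 0.174% of all genes. The values of Cdkn2b and Mxd1 were then 0.23 and 0.09, of the opposite sign, those of Lgr5 and Tnfrsf19 were 0.66 and 0.51, and those of Fzd5, Lgr4, Tle1 and Tle4 were −0.28, −0.25, 0.33 and −0.25. With the group alone none of the genes of these lists was called. List medians ran from −0.20 (nuclear partners) to 0.05 (inhibitors), against −0.01 over all genes.

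Within cycling-like cells, 1 of 15 receptor genes rose, 1 of 10 other targets rose and 2 fell, and 1 of 12 relatives and partners of Myc and Ccnd1 rose and 1 fell, against 5.05% of all genes, 2.22% higher and 2.83% lower. None was called of 3 ligand genes, 14 genes of the cytoplasmic signal, 10 nuclear partners and 5 inhibitors, and the 6 called genes are named after their values were seen. The receptor gene Fzd9, with few UMIs, stood at 2.32 and 1.81 CPM in the knockouts against 0.382 and 0.634 CPM in the controls (2.01 ± 0.49, edgeR adjusted p = 0.0396). Lgr5 rose to 129 and 76.5 CPM in the knockouts, against 105 and 37.8 CPM in the controls (0.57 ± 0.13, edgeR adjusted p = 0.0359), while Ascl2 fell to 97.4 and 58.3 CPM, against 121 and 105 CPM (−0.61 ± 0.11, edgeR adjusted p = 0.0105), so crypt base targets differed in sign. Lgr5 and Ascl2 are also among the stem markers used to name the classes. Cdx1, an intestinal identity factor, fell by 0.28 (edgeR adjusted p = 0.0419). Ccnd2, the gene of cyclin D2 and a relative of Ccnd1, stood at 473 and 398 CPM in the knockouts against 531 and 519 CPM in the controls (−0.31 ± 0.07, edgeR adjusted p = 0.0287). Cdkn1a, the gene of the CDK inhibitor p21, stood at 64.4 and 128 CPM in the knockouts against 41.9 and 52.0 CPM in the controls (0.93 ± 0.13, edgeR adjusted p = 0.00306). All of these hold with the block alone, and with the group alone their edgeR adjusted p ran from 0.54 to 0.843. The part of the cluster led by Slc7a11 in these 6 values was not tested. With the block Cdkn1a was also called higher in stem-like (0.53), enterocyte-like (0.62) and goblet-like (0.73) cells. Ccnd2 (−0.38) and Cdx1 (−0.35) were also called lower in stem-like cells, and Ascl2 (−0.85) in goblet-like cells. Lgr5 and Fzd9 were called in no other tested class. Of all genes, 2.63%, 2.32% and 7.43% were called in stem-like, enterocyte-like and goblet-like cells.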

How the data were processed

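Droplet RNA sequencing was analysed for 4 libraries, 2 knockout and 2 control, from organoids of 2 mice. The authors deposited whole-number UMI counts per gene and barcode, from Cell Ranger 3.0.1 and the mm10 build, per the submitters' processing notes, with software version 3.0.0 per the file headers. The strand setting is not given in the sources used here. The files hold no mitochondrially encoded gene.

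Barcodes with under 500 genes were removed (173 of 5602), then the highest Scrublet scores at 0.8% per 1000 barcodes (67; the automatic threshold marked 18 and was not used). In all, 2 barcodes were shared between libraries. Cells were clustered with scanpy 1.11.5 (2000 variable genes, 30 components, Leiden resolution 1) into 16 clusters, each of which took the name of the best marker list with 3 or more detected markers and a score from 0.5 upwards. Low-depth clusters and those with mixed markers stayed unnamed. UMI counts were summed per library and class (at least 10 cells in each library) and tested two-sided over all genes with edgeR 4.0.16 (quasi-likelihood, TMM, filterByExpr, Benjamini-Hochberg adjusted p under 0.05). The model held the group alone, or also the mouse number as a block.

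The numbers are taken to pair the libraries by mouse: the labels give 2 mice without assigning libraries to them, and the deposited files carry 1 tag per number. The gap between mice in the knockouts correlated with that in the controls across genes, at 0.660 over all cells and between 0.204 (Paneth-like) and 0.564 (enterocyte-like) within classes. The block leaves 1 residual degree of freedom, so edgeR takes much of a gene's spread from other genes. Nothing states that cultures were independent beyond the mice. With the group alone the p-values measure the spread between the libraries of a group. Their counts differed beyond sampling noise (chi-square per degree of freedom 60.5 between the knockouts and 87.2 between the controls). With the block the p-values measure how far the difference between knockout and control varied between the 2 mice. Differences in effect between classes were fitted as interactions with the library as a block. With class shares held fixed, log2(CPM + 1) of class levels weighted by 1 set of shares, of the UMIs in the controls, was tested with limma 3.58.1. DESeq2 1.42.0, other filters, clusterings and left-out libraries were alternatives. The scripts were tested on simulated data. All 10 genes are named in every comparison. From the lists of other Wnt genes, up to 3 per direction with the largest change in all cells among those passing with the block are named, and for each of the 10 the 3 most alike genes were computed, of which not all are reported here. The genes and lists were chosen with earlier results of these data known. The block combined with another filter or clustering, the class without 1 cycling-like cluster, the interactions with a library left out and the fixed class shares for the other Wnt genes were added after seeing the data.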

Additional observations from a re-analysis of the deposited data

Results flagged for a closer look

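The difference of the knockout effect on Cd44 between classes passed its test with the mouse number as a block. It was higher in stem-like than in enterocyte-like cells by 1.46 ± 0.40 on the log2 scale (edgeR adjusted p = 0.0363), and higher in cycling-like than in enterocyte-like cells by 1.28 ± 0.37 (edgeR adjusted p = 0.0397). Cd44 was higher in the knockout of both mice in stem-like and cycling-like cells and lower in the knockout of both mice in enterocyte-like cells. The enterocyte-like values rest on 9 and 15 Cd44 UMIs in the knockouts and 27 and 43 in the controls, and 0.926% to 1.90% of thinned cells held one. The part of RNA from other cells in those counts was not tested, so the difference is not shown to be one between the classes' own expression.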

How the results depend on the processing

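With the group alone none of the 10 genes was called in any comparison. With the mouse number as a replicate block, 2 were called in all cells, 1 in stem-like, 2 in cycling-like and 2 in goblet-like cells, 0 in enterocyte-like and Paneth-like cells, and 1 in each test of a difference between classes. The numbers are taken to pair the libraries by mouse, and the block changed no other call. At the main settings the block called 12.7% of all genes in all cells, 2.63% in stem-like, 5.05% in cycling-like and 7.43% in goblet-like cells. With no filter on low counts it called 2 of the 10 genes in each of these, against 13.6%, 2.23%, 7.07% and 4.73% of all genes. Keeping likely doublets also meant clustering the cells anew, which redrew the classes. With them kept the block called 2 in all cells, 2 in cycling-like and 3 in goblet-like cells, where Ccnd1 joined. The shares of all genes were then 13.8%, 6.32% and 15.1%. With at least 1000 genes per barcode it called 2 in all cells, against 14.2%. At the coarser clustering it called 2 in cycling-like and 2 in goblet-like cells, against 5.61% and 13%. Without the cluster led by Slc7a11 it called 2 in cycling-like cells, against 5.11%. Without the block, DESeq2 called 1 gene in all cells, and no filter on low counts gave 1 in cycling-like cells. It was Cd44 in both, against 0.989% and 1.73% of all genes. Leaving out 1 library gave 0 to 1 calls in stem-like and goblet-like cells and for the difference between stem-like and enterocyte-like cells, and 0 to 0 elsewhere. The cause was not tested. With the block no residual degree of freedom is left once a library is out, so its calls could not be checked that way. Of 596 alternatives of the 69 log2 fold changes with the group alone, 83 turned the sign, 35 gained a call and 478 kept sign and call. None of the 69 was called to begin with, so these counts do not show that called values keep their sign.

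The turned values were small under most settings. With class shares held fixed they were −0.0033 for Rnf43, −0.0018 for Sp5, −0.17 for Myc and −0.034 for Sox9 in all cells. With the block they were −0.0069 for Myc in all cells and 0.010 for Sp5 and −0.017 for Cd44 in Paneth-like cells, and with at least 1000 genes per barcode −0.0035 for Myc. With doublets kept they were 0.034 (Axin2), −0.12 (Znrf3), −0.068 (Sox9) and 0.15 (Tcf7) in stem-like cells, 0.0094 (Sp5) and −0.090 (Sox9) in cycling-like cells, −0.024 (Ccnd1) in enterocyte-like cells and −0.34 (Sox9) in Paneth-like cells. At the coarser clustering they were 0.024 (Axin2), −0.066 (Sox9) and 0.027 (Tcf7) in stem-like cells, −0.083 (Znrf3) and −0.037 (Sox9) in cycling-like cells, and 0.032 (Sp5) and −0.31 (Sox9) in Paneth-like cells. Tcf7 in stem-like cells was 0.025 with DESeq2 and 0.0067 with no filter, Sp5 in Paneth-like cells was 0.0025 with no filter, and Sox9 in cycling-like cells was −0.059 without the cluster led by Slc7a11.

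Leaving out 1 library turned the sign of values within these ranges. In all cells they were −0.15 to 0.63 for Axin2, −0.10 to 0.50 for Znrf3, −0.0026 to 0.45 for Sp5, −0.27 to 0.23 for Myc and −0.31 to 0.70 for Sox9. In stem-like cells they were −0.36 to 0.28 for Axin2, −0.37 to 0.77 for Znrf3, −0.15 to 0.18 for Sp5, −0.45 to 0.44 for Sox9 and −0.079 to 0.12 for Tcf7. In cycling-like cells they were −0.27 to 0.14 for Axin2, −0.13 to 0.21 for Znrf3, −0.068 to 0.014 for Sp5 and −0.35 to 0.48 for Sox9. In enterocyte-like cells they were −1.06 to 0.61 for Axin2, −0.63 to 0.67 for Rnf43, −0.74 to 0.77 for Myc, −0.26 to 0.54 for Ccnd1 and −0.74 to 0.46 for Sox9. In goblet-like cells they were −0.43 to 0.16 for Znrf3, −0.84 to 0.52 for Sp5, −0.94 to 0.079 for Myc, −0.24 to 0.74 for Ccnd1 and −0.96 to 0.026 for Tcf7. In Paneth-like cells they were −0.79 to 0.26 for Rnf43, −0.13 to 0.11 for Sp5, −0.28 to 0.74 for Ccnd1, −0.18 to 0.39 for Sox9 and −0.58 to 1.26 for Cd44. Cd44 stayed between 0.64 and 0.77 in all cells and between 0.41 and 0.66 in cycling-like cells. With 2 libraries a group, Nkd1, Znrf3 and Tcf7, with few UMIs in the smaller classes, are the least well measured.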
